A study of Mus musculus with 7 samples.

Results

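The 10 genes described here encode potassium channel subunits: the voltage-gated channels Kcnq5, Kcnb2, Kcnc2, Kcnh1 and Kcnh5, the modifier subunits Kcns3 and Kcnf1, the sodium-activated channel Kcnt2 and the tandem-pore channels Kcnk2 and Kcnk10. They were taken by gene symbol from the deposited table, and all 10 were found among the 5017 genes that it holds, with 105 probe sets between them. The 26 potassium channel genes in the table all lie on chromosomes 1, 10, 11 and 12. Shares of all genes and counts of measured genes below refer to this table only, not to the whole genome. The members were picked with the Dicer1-deficient against control differences of these arrays already known, so the differences of the 10 genes are given below as a description, without p-values. RNA came from retinal pigment epithelium (RPE), the pigmented layer that lies against the photoreceptors, dissected from mouse pups at postnatal day 5. It was measured on 7 Affymetrix arrays, 4 of the control group and 3 of the Dicer1-deficient group. The deficient pups were Dicer1 loxP/loxP with Dct-Cre, a Cre transgene driven by the promoter of dopachrome tautomerase, which is active in pigment cells, melanocytes included. All pups came from matings of Dicer1 flox/+ Dct cre with Dicer1 flox/flox mice, and the labels do not give the genotype of the control pups. Whether an array stands for a single animal or for pooled eyes is not stated, so the spread between arrays may be partly technical.

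Dicer1 encodes the enzyme that releases mature microRNAs from their precursors. Potassium channels set the resting voltage of the RPE and carry the potassium that this epithelium moves between the space around the photoreceptors and the choroid. Voltage-gated channels open on depolarization, modifier subunits carry no current by themselves and tune those of the Kcnb family, and tandem-pore channels carry leak current at rest. Kcnq5 belongs to the M-type family, whose slowly opening currents are active near the resting voltage, and M-type current is known from RPE cells.

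The values are log2 signals of probe sets, of which a gene had a median of 8. The median over all probe sets and arrays was 6.22, and the table gives no background level against which a signal could be called detected. Control 4 stood apart from the other arrays: its Pearson correlation with them across all probe sets ran from 0.943 to 0.951, and its median was 6.05 against 6.22 to 6.26, so values without it are given beside the results. The targeted gene, Dicer1, at its highest probe set read 10.62 ± 0.26 (SD, n = 4) in the controls. In the arrays labelled Dicer1-deficient it read 10.57 ± 0.13 (SD, n = 3). Over all 28 of its probe sets the means were 8.28 ± 0.12 (SD, n = 4) and 8.23 ± 0.023 (SD, n = 3), a difference of -0.042 (limma adjusted p = 0.921). No fall of the transcript was thus seen, and which probe sets lie in the floxed part is not given, so these values do not check the labels, from which every direction below is drawn. The pigment gene Pmel (12.66 in control) and the RPE-secreted factor gene Serpinf1 (12.13) read high, while Rpe65 and Best1, which define the RPE, were not analysed here. Marker genes of other cells read high as well. In control the fibroblast gene Col3a1 read 13.18 and the muscle gene Myl1 11.21, so the samples held RNA of other tissues. The glial list was mixed. Glul read 12.42 and Sox9 10.99, but Gfap read 7.99, S100b 7.09, Dio2 7.01 and Kcnj10 5.70, so no glial RNA is read from Glul alone. Fewer cells of a type and less RNA per cell cannot be told apart in such dissected samples.

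The genes with the clearest differences, Kcnq5 and Kcnh5, are shown with the 250 bases before their annotated transcription starts, because they moved in opposite directions and a reader may want to compare the sequence at their starts. The sequences are those of RefSeq on build GRCm38.p6, on the strand of the gene, with each CG pair in capitals. RefSeq lists 2 starts for Kcnq5 and 1 for Kcnh5, all on the minus strand. The 250 bases before them lie at chr1:21962651-21962900 and chr1:21961943-21962192 for Kcnq5 and at chr12:75177333-75177582 for Kcnh5.
Kcnq5, outer start: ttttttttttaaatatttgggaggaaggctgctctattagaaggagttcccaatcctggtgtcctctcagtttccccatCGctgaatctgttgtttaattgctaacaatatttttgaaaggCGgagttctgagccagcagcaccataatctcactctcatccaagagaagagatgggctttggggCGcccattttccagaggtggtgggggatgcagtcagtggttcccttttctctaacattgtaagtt
Kcnq5, inner start: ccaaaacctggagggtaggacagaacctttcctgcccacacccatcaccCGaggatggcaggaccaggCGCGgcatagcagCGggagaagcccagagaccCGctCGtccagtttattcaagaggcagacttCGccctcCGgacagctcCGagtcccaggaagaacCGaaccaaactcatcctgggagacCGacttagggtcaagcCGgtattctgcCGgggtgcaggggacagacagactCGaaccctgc
Kcnh5: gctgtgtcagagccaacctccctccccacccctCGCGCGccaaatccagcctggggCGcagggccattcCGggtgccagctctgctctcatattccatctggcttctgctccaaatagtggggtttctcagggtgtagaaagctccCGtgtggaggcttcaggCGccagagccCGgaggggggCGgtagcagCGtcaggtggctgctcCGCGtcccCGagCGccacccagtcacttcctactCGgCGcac
The stretch before the outer Kcnq5 start held 3 CG pairs and 44.4% G or C, the inner start 14 pairs and 60.8%, and the Kcnh5 start 16 pairs and 65.6%. Over the 32851 listed starts of mouse genes the median was 6 CG pairs and 52.4% G or C. The 300 bases around each of the 18 listed starts of 9 of the genes were searched on both strands for CACGTG and CATGTG, letters that the pigment cell factor MITF is known to bind, for TAATCC, known from OTX factors, and for TATAAA. These letters were found in 7.15%, 14.2%, 7.06% and 13.6% of all listed windows and in 0 of the 18. That says only that these exact letters are not in these windows. Kcnb2 had no listed start.

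Kcnq5 rose and Kcnh5 fell in Dicer1-deficient RPE, by 2.78-fold and 2.58-fold at their highest probe sets. There the other 8 genes had log2 differences from -0.25 to 0.10. Of these 8, 5 had every probe set below the table median, and Kcnt2 had negative differences at 25 of its 30 probe sets. In the limma fit to all 5017 genes, with Benjamini-Hochberg adjustment, 2 of the 10 genes passed an adjusted p of 0.05, 1 higher and 1 lower, beside 2.33% of all genes (1.42% higher and 0.917% lower). On the mean of all probe sets of a gene the same 2 passed, beside 5.86% of all genes (3.03% higher and 2.83% lower). Without control 4 these 2 passed again, beside 5.18% (3.17% higher and 2.01% lower). The 2 were also the members whose arrays did not overlap between groups at the highest probe set, beside 16.3% of all genes. The members were picked on this contrast, so nothing is read from these counts. The median log2 difference of the 10 genes was 0.0018 and that of all 5017 genes was -0.0095.

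**Figure D1:**
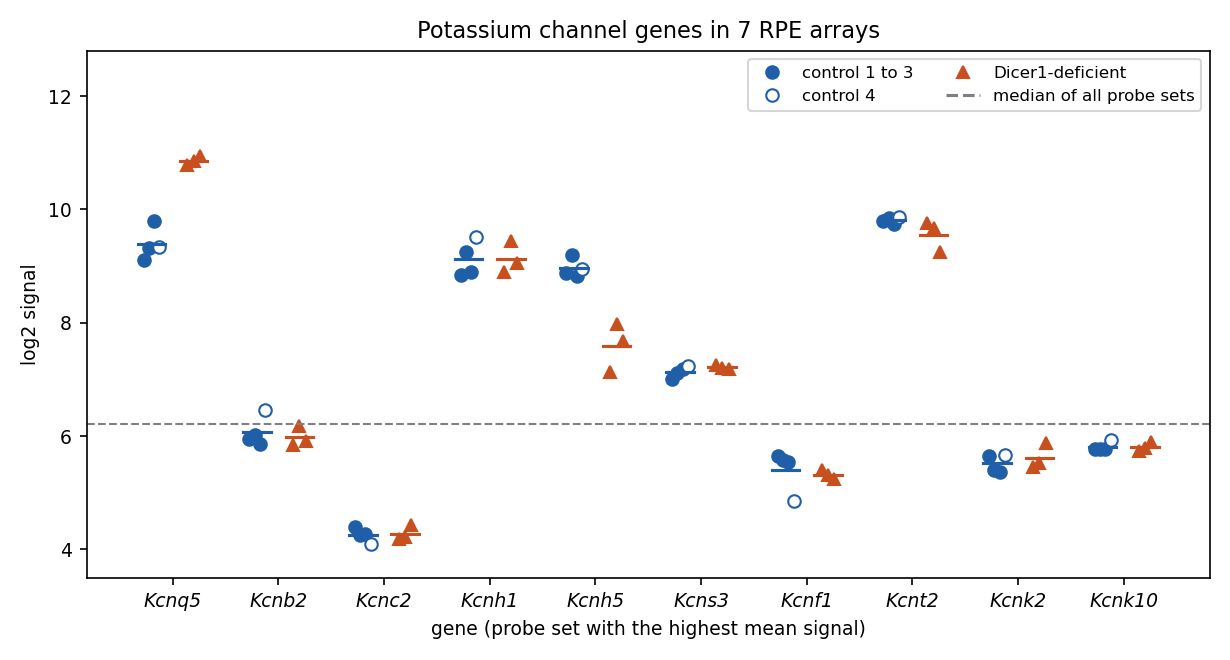
Log2 signal (y axis) of each array at the probe set with the highest mean signal of each of the 10 genes (x axis). Circles are control arrays, with control 4 open, triangles are Dicer1-deficient arrays, short bars are group means and the dashed line is the median of all probe sets, 6.22. The 3 Dicer1-deficient arrays lie above all 4 controls for Kcnq5 and below them for Kcnh5, and the groups overlap for the other 8 genes.

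Kcnq5, on chromosome 1, is the M-type member. Its highest probe set gave 9.10, 9.31, 9.79 and 9.34 in controls 1 to 4, and 10.79, 10.85 and 10.95 in Dicer1-deficient arrays 1 to 3. Every Dicer1-deficient array was thus above the highest control, and the 3 lay within a narrow band. The group means were 9.39 ± 0.29 (SD, n = 4) and 10.86 ± 0.082 (SD, n = 3), a log2 difference of 1.48 (SE 0.16), or 2.78-fold higher. Without control 4 the difference was 1.46. Kcnq5 stayed past the limma threshold under all 16 alternatives in which it was tested, with differences from 1.29 to 1.61. Kcnq5 was picked on this contrast, so its call shows only how far it depends on the processing. Of all 5017 genes, 15 had a larger positive difference.

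The rise of Kcnq5 was seen at nearly all of its probe sets. All 14 of its probe sets were higher in Dicer1-deficient RPE, by 0.43 to 2.18 log2 units with a median of 1.43, and in 13 of them the lowest Dicer1-deficient array exceeded the highest control, where 7.35% of all probe sets with 1 gene symbol were higher without overlap. The exception was probe set 10353474, at 5.20 in control and below the table median in every array, where the difference was 0.43. At the opposite end, probe set 10353468 differed by 2.18, and there control 4 read 4.47 against 6.10 to 6.89 in the other controls. Without control 4 that difference was 1.64, and the 14 differences ran from 0.47 to 1.64. The mean of the 14 probe sets was 6.86, 7.16, 7.34 and 6.70 in controls 1 to 4 and 8.38, 8.57 and 8.29 in the Dicer1-deficient arrays. These means differed by 1.40 (SE 0.15), close to the value at the highest probe set. Dicer1-deficient array 2 was the highest of all 7 arrays at 11 of the 14 probe sets, and the lowest was control 1 or control 4 at each.

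Kcnh5, on chromosome 12, encodes an ether-a-go-go channel, a voltage-gated channel best known from brain. Its highest probe set gave 8.88, 9.20, 8.83 and 8.96 in controls 1 to 4. The Dicer1-deficient arrays gave 7.14, 7.98 and 7.68. All 3 were below the lowest control, and they were spread more widely than the controls. The group means were 8.97 ± 0.16 (SD, n = 4) and 7.60 ± 0.43 (SD, n = 3), a log2 difference of -1.37 (SE 0.20), or 2.58-fold lower. Without control 4 the difference was again -1.37. Of all genes, 12 had a larger negative difference. The limma call was lost when Dicer1-deficient array 3 (-1.41) or control 2 (-1.29) was left out. It held in the other 14 of 16 alternatives, with differences from -1.56 to -1.14 over all 16. Kcnh5 too was picked on this contrast, so its call shows only how far it depends on the processing.

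Each of the 12 probe sets of Kcnh5 was lower in the Dicer1-deficient arrays, with log2 differences from -1.86 to -1.10 and a median of -1.26. In all 12 the groups did not overlap, where 6.62% of all probe sets with 1 symbol were lower without overlap. The largest fall was at probe set 10400999, from 7.36 to 5.50. Dicer1-deficient array 1 was the lowest of the 7 arrays at all 12 probe sets, so its distance from arrays 2 and 3 was shared by all of them. The mean of the probe sets was 7.65, 7.79, 7.54 and 7.44 in the controls and 5.94, 6.52 and 6.43 in the Dicer1-deficient arrays, a difference of -1.31 (SE 0.15). In 3 of the 12 probe sets the mean over all arrays was below the table median; their differences ran from -1.31 to -1.20.

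**Figure D2:**
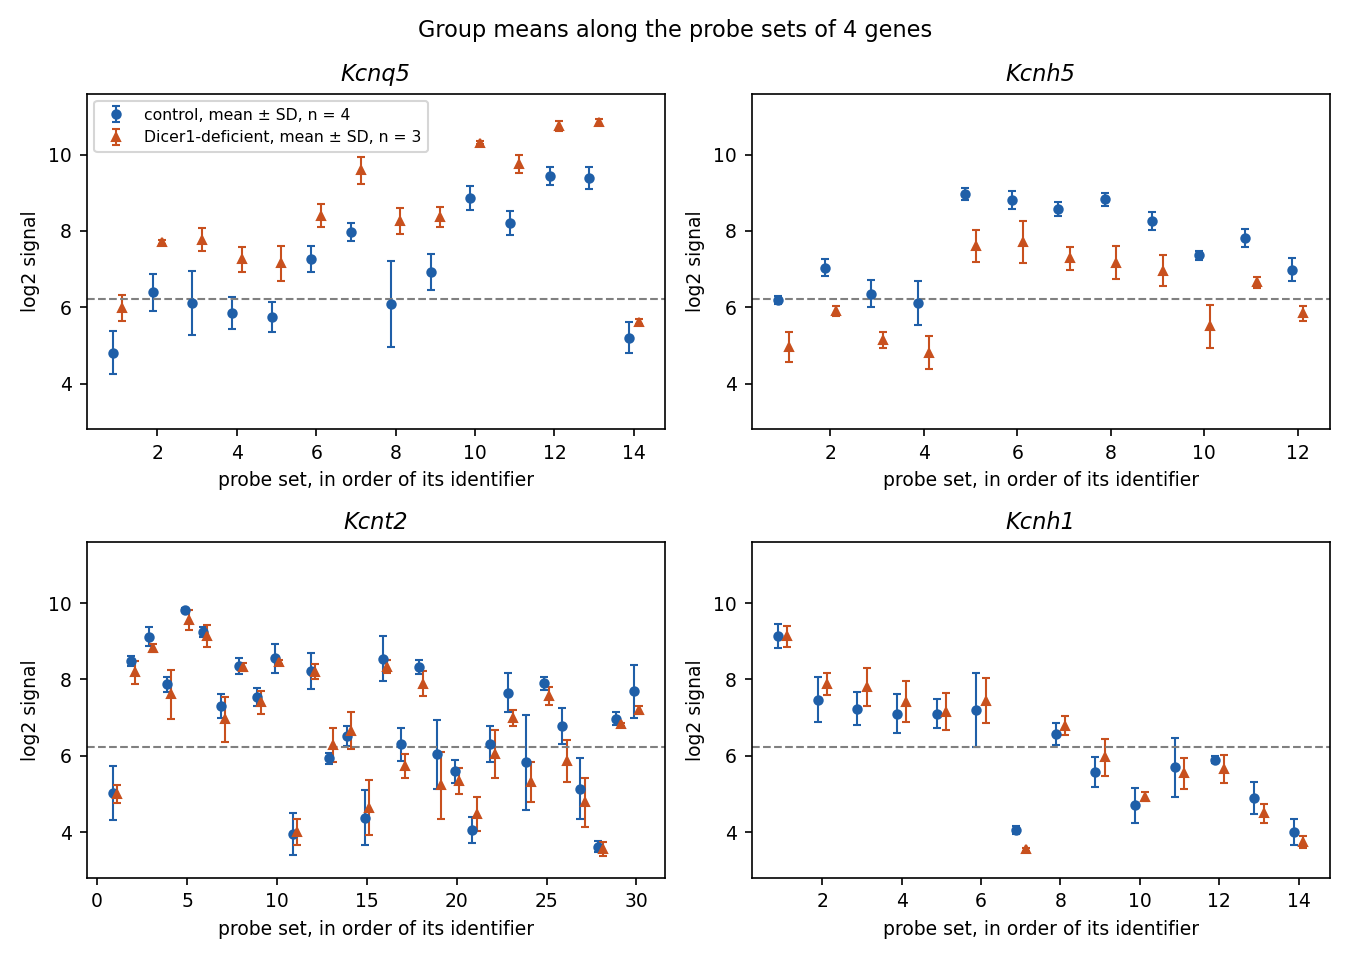
Log2 signal (y axis) along the probe sets of Kcnq5, Kcnh5, Kcnt2 and Kcnh1, in the order of their identifiers (x axis), which need not be the order in the transcript. Circles are control means (n = 4) and triangles Dicer1-deficient means (n = 3), bars are SDs over arrays and the dashed line is the median of all probe sets, 6.22. The arrays do not overlap between groups at 12 of 12 probe sets of Kcnh5, 13 of 14 of Kcnq5, 1 of 14 of Kcnh1 and 0 of 30 of Kcnt2.

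Kcnh1, the paralog of Kcnh5 on chromosome 1, showed no such difference at its highest probe set. Its highest probe set read 8.84, 9.26, 8.89 and 9.51 in the controls and 8.89, 9.44 and 9.05 in the Dicer1-deficient arrays. The ranges lay on top of each other, and the difference was 0.0023 (SE 0.20), or 0.13 without control 4. At the 7 probe sets with a mean at or above the table median the difference was positive at all 7, from 0.0023 to 0.56, the smallest of them turning to -0.027 when arrays were centred on their medians. At the 7 dimmer probe sets it was positive at 2 and negative at 5. The largest of these negative differences, -0.52 at probe set 10352805, came from signals of 4.06 and 3.54, below the lower quartile of the table (4.63), and was the single probe set of Kcnh1 without overlap. Among the Dicer1-deficient arrays the spread was largely shared along the gene, with array 2 the highest of them at 12 of 14 probe sets. Among the controls it was less so, since control 4 was the highest control at 8 probe sets and the lowest at 4.

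The remaining voltage-gated members, Kcnb2 and Kcnc2, gave low signals. Kcnb2, a delayed rectifier of neurons and muscle, read 5.96, 6.02, 5.86 and 6.45 in the controls and 5.84, 6.18 and 5.92 in the Dicer1-deficient arrays at its highest probe set, a difference of -0.092 (SE 0.16) that became 0.035 without control 4. Kcnc2, a fast delayed rectifier of rapidly firing neurons, read 4.26 ± 0.12 (SD, n = 4) and 4.28 ± 0.13 (SD, n = 3), a difference of 0.019 (SE 0.11) that was -0.036 without control 4. Both means of Kcnc2 lay in the part of the table under its lower quartile (4.63). Its 7 probe sets all had small positive differences, up to 0.19, which fell to 5 of 7 with median centring. Without control 4, 6 of 7 were positive, up to 0.51 at probe set 10366392, where control 4 read 5.28 and the other controls 3.61 to 4.24.

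Of the modifier subunits, Kcns3 was above the table median at 1 of its 3 probe sets and Kcnf1 at none. Kcns3 read 7.01, 7.11, 7.19 and 7.24 in the controls and 7.26, 7.20 and 7.19 in the Dicer1-deficient arrays. The ranges of the groups overlapped, and the difference was 0.079 (SE 0.096). Its dimmer probe sets had negative differences, so that the mean of the 3 gave -0.097 (SE 0.082). Kcnf1 read 5.65, 5.57, 5.55 and 4.86 in the controls and 5.40, 5.31 and 5.24 in the Dicer1-deficient arrays, a difference of -0.092 (SE 0.19). With control 4, the low value, left out it was -0.27. Averaged over its 3 probe sets the difference was -0.069.

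Kcnt2 encodes Slick, a channel opened by intracellular sodium and chloride. The controls at its highest probe set read 9.80, 9.85, 9.74 and 9.86, the Dicer1-deficient arrays 9.76, 9.66 and 9.25. The upper Dicer1-deficient array was inside the control range and array 3 well below it. The difference was -0.25 (SE 0.14), or -0.24 without control 4. With 30 probe sets Kcnt2 was the most densely covered of the 10 genes, and 25 of the 30 had negative differences, with a median of -0.25 and a range from -0.91 to 0.43. None of the 30 had groups without overlap, beside 14% of all probe sets in either direction. The mean of its probe sets was 7.02, 6.93, 7.00 and 6.66 in the controls and 6.77, 6.58 and 6.68 in the Dicer1-deficient arrays, a difference of -0.22 (SE 0.11). Control 4 was the lowest control by that mean. When it was left out, the difference of the means was -0.30 and passed the limma test over all genes. Under that setting 3 of the 10 members passed beside 17% of all genes (6.74% higher and 10.3% lower). The members were picked on this contrast, so nothing is read from that call.

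The tandem-pore members Kcnk2 and Kcnk10 encode TREK channels, leak channels that respond to stretch, lipids and temperature. Every probe set of both, 10 and 9 of them, had a mean below the table median. Kcnk2 read 5.64, 5.41, 5.36 and 5.67 in the controls and 5.46, 5.53 and 5.88 in the Dicer1-deficient arrays, a difference of 0.10 (SE 0.14), while its 10 probe sets averaged gave -0.11 (SE 0.082). Kcnk10 read 5.77, 5.77, 5.77 and 5.93 in the controls and 5.74, 5.80 and 5.89 in the Dicer1-deficient arrays. Its 7 values spanned less than those of the other members, with a difference of 0.0012 (SE 0.095).

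**Figure D3:**
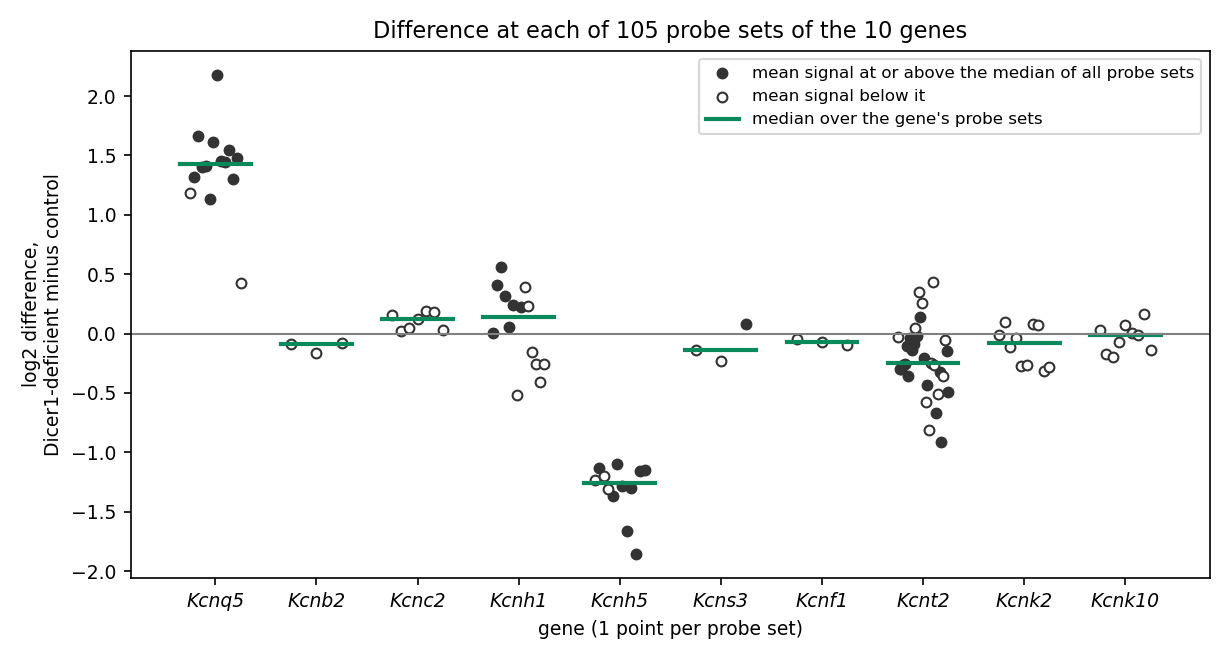
Log2 difference, Dicer1-deficient minus control (y axis), at each probe set of the 10 genes (x axis). Filled points are probe sets with a mean over the 7 arrays at or above the median of all probe sets, open points those below it, and bars are the median over the probe sets of a gene. All 14 points of Kcnq5 are above 0 and all 12 of Kcnh5 below -1, and the other genes have points within 1 log2 unit of 0.

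Taken as a set, 58 of the 105 probe sets had a mean below the table median, and for 5 of the 10 genes (Kcnb2, Kcnc2, Kcnf1, Kcnk2 and Kcnk10) this held at every probe set. The 5 genes with a signal above the median were Kcnq5, Kcnh1, Kcnh5, Kcns3 and Kcnt2. Among the 8 genes that did not pass, differences at the highest probe set ran from -0.25 to 0.10 with SEs from 0.095 to 0.20, and on the mean of probe sets from -0.22 to 0.11. Of these 8, Kcnt2 and Kcnf1 kept a negative sign in all 13 alternatives computed for them, and the sign of the other 6 turned in at least 1.

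The other potassium channel genes in the table were 16: 2 voltage-gated channels, 1 tandem-pore channel, 6 inward rectifiers and 7 auxiliary subunits. They were taken by symbol, as those left once the 10 members were set aside. The members were picked on this contrast, so the 16 are not free of that choice. By limma over all genes 1 of the 16 passed, Kcnj13, beside 2.33% of all genes. Kcnj13 encodes Kir7.1, the inward rectifier of the apical RPE membrane, and its controls read 10.96, 11.15, 11.25 and 11.34 against 10.22, 9.88 and 9.86, a log2 difference of -1.19 (SE 0.14, limma adjusted p = 0.0051). Its Dicer1-deficient arrays were all below the lowest control, and array 1, the lowest for Kcnh5, was here the highest of the 3. On the mean of its 2 probe sets Kcnj13 differed by -1.18 (limma adjusted p = 0.00081), and it passed under all 16 alternatives (-1.31 to -1.12).

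Kcne4 encodes an accessory subunit known to inhibit the Kcnq1 channel. It read 8.49, 8.63, 8.44 and 8.65 in controls 1 to 4. The Dicer1-deficient arrays read 7.72, 8.55 and 8.13, so that array 2 lay within the control range. The difference was -0.42 (SE 0.19, limma adjusted p = 0.359). On the mean of its 4 probe sets it was -0.75 (SE 0.18, limma adjusted p = 0.0383), where 5.86% of all genes passed, and -0.69 without control 4 (limma adjusted p = 0.0362). The call on Kcne4 thus depends on how its probe sets are combined.

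None of the remaining 14 passed on either summary over all 7 arrays. The voltage-gated channel Kcnh4, a relative of Kcnh5, had a difference of -0.24 (limma adjusted p = 0.77). Kcnk13, the further tandem-pore channel, had 0.11 (limma adjusted p = 0.839). Kcnmb1, an auxiliary subunit of calcium-activated channels, had 0.20 (limma adjusted p = 0.75). The 16 genes had a median difference of -0.045, with 7 positive and 9 negative, close to the median of all genes (-0.0095). By limma 1 of them, Kcnj13, had an unadjusted p under 0.05, beside 725 of all 5017 genes (14.5%). The members had been set aside on this contrast, so nothing is read from that median or that share.

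**Figure D4:**
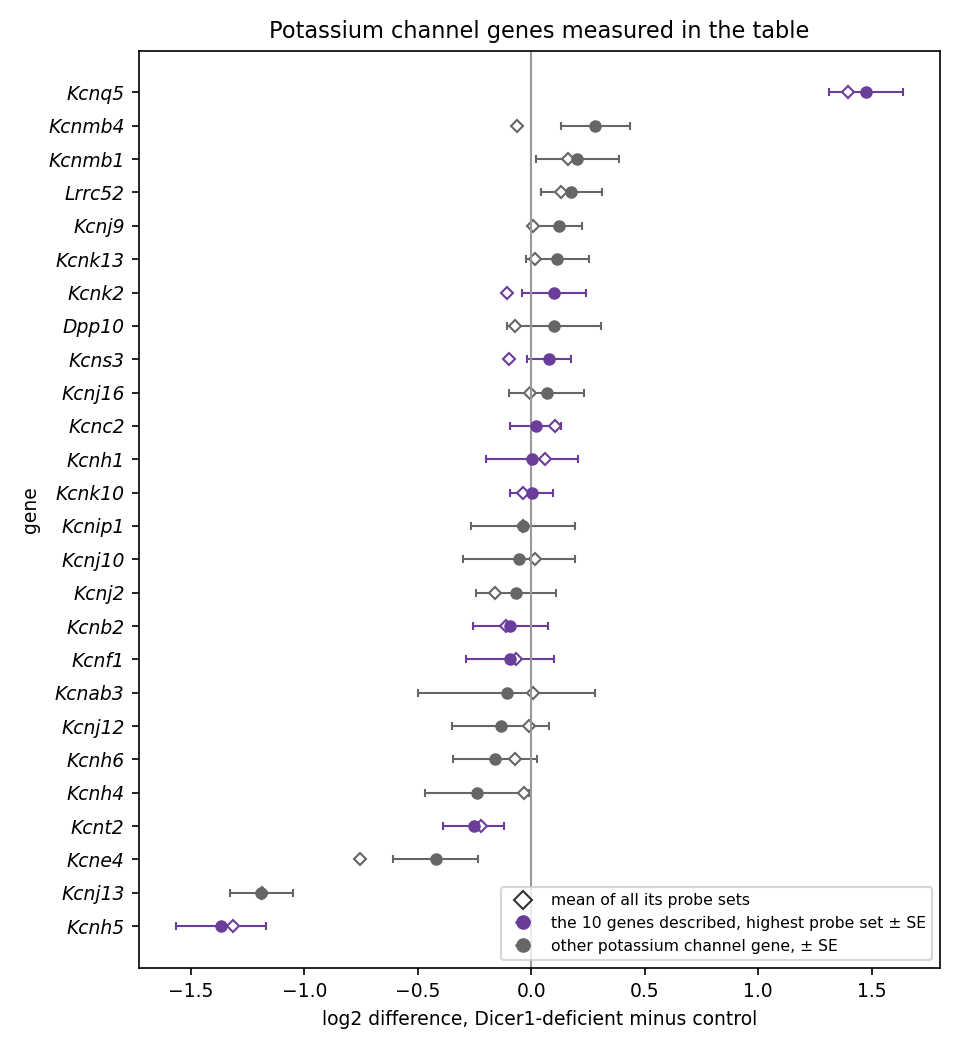
Log2 difference, Dicer1-deficient minus control (x axis), of the 26 potassium channel genes in the table (y axis), sorted. Circles are the probe set with the highest mean signal with the SE of the limma fit, in purple for the 10 genes described and grey for the other 16, and open diamonds are the mean of all probe sets of a gene. Kcnq5 (1.48) lies at the top, and Kcnj13 (-1.19) and Kcnh5 (-1.37) at the bottom, away from the rest.

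Marker lists of the RPE and of other cells were read beside these differences. By limma 2.33% of all genes passed at the highest probe set, and 14.5% had an unadjusted p under 0.05 there. On the mean of probe sets 3.03% passed higher and 2.83% lower. The counts below stand beside these shares. At the highest probe set 2 marker genes passed the limma test over all genes, Kcnj13 of the RPE list and Tfap2a of the neuron list. Tfap2a had a difference of -0.99 (limma adjusted p = 0.047). Its paralog Tfap2b, on the same list, had 0.86 (limma adjusted p = 0.094), and the neuron list had 8 positive and 4 negative differences. The summed linear signal of 4 lists did not overlap between the groups. Among single genes at the highest probe set 16.3% had no overlap, and no such share was computed for sums. Such a sum mostly follows the brightest genes of its list and need not stand for the others. The 6 measured RPE genes of 18, Kcnj13 included, summed to 15215 to 16596 in control and 11657 to 12489 in Dicer1-deficient arrays, with 5 negative differences, and on the mean of probe sets 4 of them passed lower. The 7 measured photoreceptor genes of 32 summed to 1136 to 1426 and 1630 to 2094, with 6 positive differences and 4 control means below the table median. The brightest was Unc119, at 9.68 in control and 10.23 in Dicer1-deficient arrays. By limma 0 of the 7 passed, 3 were higher at an unadjusted p under 0.05, and 1 passed higher on the mean of probe sets. The 6 measured glial genes of 18 summed to 7763 to 8467 and 8783 to 9730, with 4 positive and 2 negative differences. The brightest was Glul, at 12.42 in control and 12.57 in Dicer1-deficient arrays. By limma 0 of these 6 passed or had an unadjusted p under 0.05, and 1 passed higher on the mean of probe sets. The 3 measured melanocyte and Schwann cell genes of 10, with Erbb3 (9.76) the brightest, summed to 1525 to 1967 and 1111 to 1158, all with negative differences. By limma 0 of the 3 passed, 2 were lower at an unadjusted p under 0.05, and these 2 passed on the mean of probe sets.

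The sums of the other lists overlapped. Of the 12 measured neuron genes of 38, with sums of 3139 to 3687 and 3346 to 3798, 8 differences were positive and 4 negative. By limma 2 were higher and 1 lower at an unadjusted p under 0.05. On the mean of probe sets 2 passed higher and 1 lower. All 5 measured pigment genes of 14 had negative differences, with sums of 9691 to 11108 and 8544 to 9901, and by limma 0 passed and 3 were lower at an unadjusted p under 0.05. Of the 11 measured fibroblast genes of 15, 9 had negative differences, with sums of 36251 to 39477 and 33164 to 36374; by limma 0 passed, 4 were lower at an unadjusted p under 0.05, and 3 passed lower on the mean of probe sets. Of the 7 measured lens genes of 17, 6 had positive differences, with sums of 1348 to 2540 and 1822 to 4695, and by limma 0 passed, with 1 higher and 1 lower at an unadjusted p under 0.05. The muscle, vessel, macrophage and erythrocyte lists had no gene past the limma threshold on either summary. By limma 1 muscle gene was higher and 1 macrophage gene lower at an unadjusted p under 0.05. The muscle sums were 8893 to 10984 in control and 7810 to 15081 in Dicer1-deficient arrays. The part of these shifts in the differences of Kcnq5 and Kcnh5 was not tested.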

How the data were processed

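Biotin-labelled total RNA of dissected RPE was put on Affymetrix arrays, per the labels' protocols. A single table of log2 signals was deposited by the authors, with a column for each of the 7 arrays. The submitters' processing notes name RMA, which corrects background, normalizes arrays by quantiles and combines probes, and Partek 6.6, without their roles; the log2 scale follows from the range of the values, and build and filters were not given in the sources used here. Quantile normalization would hide a change in total RNA.

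Of the 65535 probe sets in the table (genes outside it were not analysed here), the 53644 with 1 gene symbol in the platform annotation were used, giving 5017 genes after symbols were updated with the RefSeq gene table. Each gene was represented by its probe set of highest mean signal across arrays. The comparison used lmFit and eBayes of limma (two-sided) with p-values adjusted by Benjamini-Hochberg across the genes, a threshold of 0.05 and all 7 arrays (2.82 prior and 5 residual degrees of freedom). SDs are over arrays. Precision is limited by the number of arrays. Named genes are the targeted gene, the 10 members, other potassium channel genes that passed on either summary or had the highest control signal or smallest p of their class, and markers that passed or read highest. The other measured glial genes and Tfap2b are named beside these markers. The members and lists were chosen with earlier results of these data known. The code was tested on simulated data. Alternatives were normalization, centring, the mean or median of probe sets, a filter on dim genes, moderation, array weights, the threshold and leaving out arrays. Software versions were limma 3.58.1 on R 4.3.3, and pandas 2.3.3 and matplotlib 3.10.9 on Python 3.11.15.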

Additional observations from a re-analysis of the deposited data

Results flagged for a closer look

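Of 27 genes checked (Dicer1 and the 26 potassium channel genes), 2 had a control array far from the other 3 by Dixon's criterion, which chance meets in about 1 of 20 groups. For Kcnf1 control 4 read 4.86 and the others 5.55 to 5.65. For Kcnk10 control 4 read 5.93 and the others 5.77. In both cases the array is control 4, and both genes were below the table median at every probe set.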

How the results depend on the processing

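Kcnq5 kept its sign and stayed within 1 SD of its difference under all 13 alternatives that move a value (1.29 to 1.61), as did Kcnh5 (-1.56 to -1.14). Kcnb2, Kcnc2, Kcnf1, Kcnh1 and Kcnt2 also moved by less than 1 SD. Kcns3 went from 0.079 to -0.097 on the mean of probe sets, -0.22 on their median and -0.087 on the mean without control 4, Kcnk2 from 0.10 to -0.11, -0.14 and -0.095, and Kcnk10 from 0.0012 to -0.26 on the median; the cause was not tested. The count of genes past the threshold was 117, and it was 294 on the mean of probe sets, 176 on their median, 385 with array weights, 853 on the mean without control 4 and 213 at an adjusted p of 0.1. It ran from 33 to 260 with 1 array left out, the highest without control 4 and the lowest without Dicer1-deficient array 1. Of the other potassium channel genes, the 1 that passed lower became 2 on the mean of probe sets, on their median and on the mean without control 4, by adding Kcne4, and 1 passed higher on the mean without control 4, Lrrc52 at 0.22, a gene named after its values were seen. No paired analysis was possible because the labels number no replicates and pair no arrays. Arrays have no read depth, and 5 of the 10 genes had only probe sets below the table median.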
